A study of Mus musculus with 2 samples.

Results

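Stromal cells of the mouse endometrium in which UMIs of Col6a4, Adam12, Ripor2, Nid1, Cacna2d1 and Hsd11b2 outnumbered those of Col7a1, Pth1r, Scube1, Prdm1, Apcdd1 and Col26a1 are described here. A cell first counted as stromal when the UMI sum of Col1a1, Col1a2, Col3a1, Pdgfra and Hoxd10 was at least 2 and more than 2 times that of each of 4 sets of epithelial, mesothelial, endothelial and immune genes. It entered the gate when the first 6 genes had at least 1 UMI and more than the other 6. Members were thus chosen by the UMIs of these genes in the same cells, and their levels of those genes are descriptions. The gate held 921 of 2339 stromal cells and of 7908 barcodes in all. The same rule with the 2 sets of genes exchanged gave an opposing gate of 881 cells, and 537 stromal cells were in neither because the sums were tied.

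The cells came from uteri of Mus musculus on day 3 of pregnancy, with 1 library from Erbb3 f/f females, the controls, and 1 from Erbb3 d/d females, which the labels describe as lacking Erbb3 in the stroma. RNA was read with the Chromium Flex assay, in which pairs of probes are hybridised to fixed cells and counted by molecular identifiers (UMIs). The labels give neither the Cre line behind the deletion, nor the age or number of animals in a library, so no spread between animals can be given and no test was made. Every interval below is a 95% exact interval for counting error alone.

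The endometrial stroma is a layer of fibroblasts beneath the luminal epithelium and around the glands. Progesterone and estrogen act on it through their nuclear receptors, and epithelial Indian hedgehog signals to stromal Ptch1, Gli and Nr2f2 before implantation. ErbB3 is a receptor for neuregulins that has little kinase activity of its own and signals as a partner of other ErbB receptors. Of the genes in the rule, Col6a4 encodes a chain of collagen VI, Adam12 a membrane metalloprotease, and Ripor2 a regulator of the small GTPase RhoA. Nid1 encodes nidogen, a linker of basement membranes, Cacna2d1 an auxiliary subunit of voltage-gated calcium channels, and Hsd11b2 the enzyme that inactivates corticosterone.

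The libraries differed in size and in cell quality before any gate was set. They held 5783 (f/f) and 2125 (d/d) barcodes and 6819591 and 2866862 UMIs, and 0 whole barcodes were shared between them. Cut to the first 16 bases, 158 barcode sequences were shared. Barcodes with a mitochondrial share of UMIs above 10% were left out, 280 in the f/f and 295 in the d/d library. The 659 gate cells of f/f had a median of 825 UMIs and the 262 of d/d a median of 799. Their median mitochondrial share was 1.84% in the f/f and 3.68% in the d/d library, against 1.04% and 1.40% in the opposing gate. The mitochondrial share therefore moved both with the gate and with the genotype, and its part in the results below was not tested.

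The genotype was checked on Erbb3 itself, which was sparse in the stroma of both libraries. The gate held 15 Erbb3 UMIs in the f/f and 3 in the d/d library, or 19.2 and 10.7 CPM (counts per 1000000 summed UMIs of the cells). The log2 ratio (d/d over f/f) was -0.84 with an interval from -3.27 to 0.98, so a lower level was not detectable at this depth. Over all stromal cells the counts were 40 and 6, or 20.3 and 12.1 CPM, a log2 ratio of -0.74 (-2.27 to 0.51). In the opposing gate the counts were 17 and 0, and the interval of the log2 ratio had an upper end of 0.96. In epithelial cells, where the labels name no deletion, they were 104 and 20, or 89.5 and 53.6 CPM. The log2 ratio there was -0.74 (-1.51 to -0.04), so of these groups the interval lay below 0 in epithelial cells. The labels do not say whether the Flex probes of Erbb3 lie in the deleted part of the gene, so these counts are a weak check of the labels.

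Col6a4 differed from the other genes of the rule in how strongly it was counted in d/d. In the gate it had 653 UMIs in the f/f and 769 in the d/d library, which is 835 CPM (772 to 901) and 2752 CPM (2561 to 2953). The log2 ratio (d/d over f/f) was 1.72 (1.57 to 1.87). The same gene was higher in d/d outside the gate as well: the opposing gate, chosen for other genes, had 217 and 104 UMIs, 275 and 1062 CPM for a log2 ratio of 1.95 (1.60 to 2.29). In all stromal cells the level was 493 CPM in the f/f and 1907 CPM in the d/d library. These ratios compare 1 library with 1 library, and Col6a4 helped to choose the cells of the gate, so its level there is a description.

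Col6a4 was also detected in a larger share of d/d cells. In the gate 47.8% of cells in the f/f and 81.7% in the d/d library had a UMI of it, and in the opposing gate 22.1% and 50%. In epithelial cells the shares were 2.48% in the f/f and 5.45% in the d/d library, at median depths of 975 and 929 UMIs. The shares in both gates lay above those in epithelium, but Col6a4 took part in choosing the cells of both gates. Epithelial cells had 27 and 24 UMIs of it, 23.2 and 64.3 CPM, a log2 ratio of 1.47 (0.61 to 2.32). Col6a4 was thus higher in d/d there as well.

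None of the other 5 genes of the rule was 2-fold different between the libraries within the gate. Adam12 had 481 UMIs in the f/f and 168 in the d/d library, 615 and 601 CPM, at a log2 ratio of -0.03 (-0.29 to 0.22). Ripor2 had 385 and 116 UMIs for a log2 ratio of -0.25 (-0.56 to 0.06). Nid1 had 410 and 100 UMIs, 524 and 358 CPM for a log2 ratio of -0.55 (-0.88 to -0.23). Cacna2d1 and Hsd11b2 stood between these, with log2 ratios of -0.41 (-0.73 to -0.10) and -0.33 (-0.65 to -0.03). These 5 genes also helped to choose the cells, so their ratios in the gate are descriptions. Over all stromal cells, chosen without them, Adam12 gave 0.14 (-0.08 to 0.36) and Ripor2 0.02 (-0.27 to 0.29). There Nid1 gave -0.45 (-0.73 to -0.18), Cacna2d1 -0.32 (-0.60 to -0.05) and Hsd11b2 -0.17 (-0.43 to 0.08). The plot of the 6 genes by group of cells shows Col6a4 apart from the rest.

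**Figure D1:**
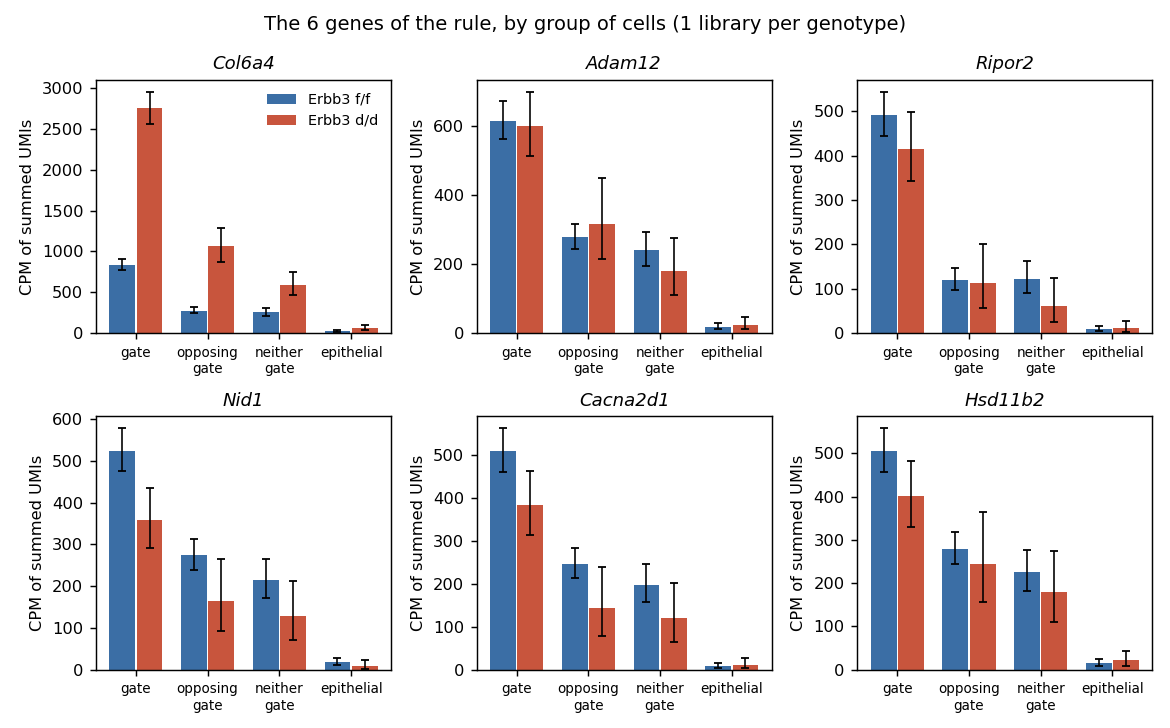
Level of the 6 genes of the rule in 4 groups of cells, as CPM of summed UMIs on axes from 0, with f/f in blue and d/d in red; bars are single libraries and lines are 95% Poisson intervals. Col6a4 is higher in d/d in the gate (835 and 2752 CPM), in the opposing gate (275 and 1062 CPM) and in stromal cells of neither gate (253 and 591 CPM).

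The stretch around the start of Col6a4 is shown because it was the gene of the rule past 2-fold between the libraries, and that of Cxcl14 because it headed the genes higher in d/d that the rule did not use. Both windows come from RefSeq on build GRCm38.p6, upstream and first transcribed bases of the gene, read on the strand of the gene. Capitals mark matches, on either strand, to GGTCA (reverse TGACC), the half-site of the estrogen receptor, and to TGTTCT (reverse AGAACA), the half-site of progesterone and glucocorticoid receptors.
Col6a4, chr9:106096642-106096941, minus strand: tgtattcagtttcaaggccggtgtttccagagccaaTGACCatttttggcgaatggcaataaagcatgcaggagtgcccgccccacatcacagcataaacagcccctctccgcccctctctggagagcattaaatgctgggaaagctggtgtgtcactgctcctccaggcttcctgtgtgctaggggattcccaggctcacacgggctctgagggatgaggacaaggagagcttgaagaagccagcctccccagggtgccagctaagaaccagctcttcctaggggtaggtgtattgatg
Cxcl14, chr13:56296502-56296801, minus strand: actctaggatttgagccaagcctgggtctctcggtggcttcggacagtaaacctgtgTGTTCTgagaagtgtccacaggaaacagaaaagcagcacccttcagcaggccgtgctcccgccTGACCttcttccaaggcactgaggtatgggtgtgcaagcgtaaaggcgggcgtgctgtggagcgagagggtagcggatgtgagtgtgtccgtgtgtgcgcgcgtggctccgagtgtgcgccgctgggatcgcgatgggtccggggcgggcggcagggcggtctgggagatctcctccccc
Each window held 1 match to GGTCA, and that of Cxcl14 also held 1 match to TGTTCT. Of all 32851 windows in the table, 40.5% held GGTCA and 19.0% TGTTCT, so such matches are common. The letters describe the windows and say nothing of binding. The single windows of Nid1 and Cacna2d1 held neither motif, Ripor2 has 3 starts in the table, and Adam12 and Hsd11b2 were not matched.

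The gate took 35.5% of stromal cells in f/f (659 of 1858, interval 33.3% to 37.7%) and 54.5% in d/d (262 of 481, 49.9% to 59.0%). The opposing gate took 42.1% (39.9% to 44.4%) and 20.4% (16.9% to 24.3%). With Col6a4 left out of the rule the gate took 27.3% (25.3% to 29.4%) of stromal cells in the f/f and 30.4% (26.3% to 34.7%) in the d/d library, and the 2 intervals overlapped. With any 1 of the other 5 left out the shares were 28.5% to 30.6% in f/f and 49.9% to 51.8% in d/d. Because the level of a gate gene differed between the libraries, the shares describe the rule and not the number of cells of a kind.

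Entry into the gate often rested on a single UMI. In f/f 274 gate cells (41.6%) and in d/d 77 (29.4%) led by just 1 UMI, while just outside 416 and 121 cells were tied, 204 and 72 of them with no UMI of either set. A lead of 4 UMIs or more was held by 130 cells in the f/f and 103 in the d/d library. The median gate cell had 3 UMIs of the 6 genes in the f/f and 4.5 in the d/d library, and 1 cell of f/f reached 63. Only 1 of the 6 genes was detected in 166 gate cells of f/f (25.2%) and 61 of d/d (23.3%). For 46 of the former and 37 of the latter that gene was Col6a4. All 6 genes were seen together in 11 cells of f/f and 2 of d/d.

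Read one at a time, Col6a4 and Ripor2 in f/f had a counting interval above 0 in cells chosen by the other genes, and in d/d 0 of the 6 genes did. Each gene was read in cells gated by the other 5 and in the opposing gate, so that it took no part in the choice. Col6a4 then had 571 CPM in the gate and 485 CPM in the opposing gate of f/f, a log2 ratio of 0.23 (0.02 to 0.44), and in d/d 2320 and 2148 CPM, a log2 ratio of 0.11 (-0.10 to 0.32). Ripor2 was the gene with the largest ratio in both libraries, 350 and 254 CPM in f/f (0.46, 0.19 to 0.74) and 354 and 245 CPM in d/d (0.53, -0.11 to 1.20).

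Adam12, the other gene that names the cells, stood at 400 CPM in the gate of the other 5 and 444 CPM in the opposing gate of f/f, and at 464 and 636 CPM in d/d. Its log2 ratios were -0.15 (-0.39 to 0.08) and -0.45 (-0.87 to -0.03). Hsd11b2 was lower in the gate in both libraries, with log2 ratios of -0.31 (-0.57 to -0.07) and -0.56 (-1.08 to -0.02). Nid1 gave -0.20 and 0.20 and Cacna2d1 0.00 and 0.07, with every interval across 0. In cells where the 2 sums were tied, each left-out gene was lower than in both gates of both libraries. Ripor2, for one, had 186 CPM there in the f/f and 121 CPM in the d/d library, and Hsd11b2 264 and 224 CPM. Measured against the opposing gate, the data thus go against a set of cells marked jointly by these 6 genes, and the cells are called gate cells from here on.

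**Figure D2:**
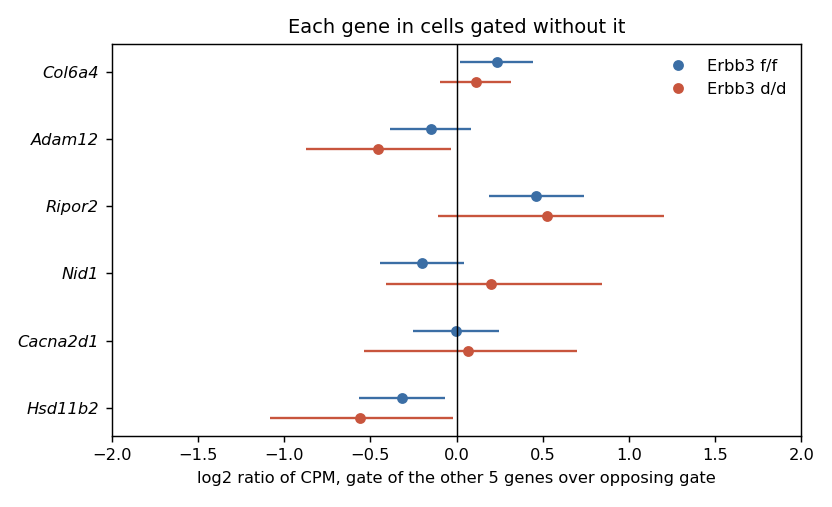
Log2 ratio of the CPM of each gene of the rule in cells gated by the other 5 genes over its CPM in the opposing gate, with 95% counting intervals, f/f in blue and d/d in red. Ripor2 lies highest in both libraries (0.46 and 0.53), and Adam12 and Hsd11b2 lie below 0 in both.

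Levels along the lead of the other 5 genes gave the same picture. Ripor2 had 211 CPM in f/f cells where the opposing genes led by 3 UMIs or more and 443 CPM where the other 5 gate genes led by 3 or more. In d/d the values were 167 and 393 CPM. Hsd11b2 had 500 and 356 CPM in f/f and 485 and 317 CPM in d/d at the same ends. Adam12 had 496 and 493 CPM in f/f and 620 and 536 CPM in d/d, with lower levels (317 and 176 CPM) in cells where the lead was 0.

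The gate cells were nonetheless stromal by genes that the rule did not use. The 14 fibroblast markers, among them Dcn, Col6a1, Col6a2, Hand2 and Hoxa10, were all detected in the gate of both libraries and summed to 6555 CPM in the f/f and 6556 CPM in the d/d library. The opposing gate had 7365 and 7467 CPM, and epithelial cells 447 and 319 CPM. Of the markers of other cells, those of epithelium summed to 853 CPM in f/f gate cells and 1066 CPM in those of d/d, against 3922 and 4644 CPM in epithelial cells. Endothelial markers summed to 248 and 272 CPM, immune markers to 408 and 623 CPM, and mesothelial markers, led by Wt1, a gene of uterine stroma too, to 1032 and 1231 CPM. Of 6 nerve and glia markers 4 were at 0 in both libraries.

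Of the 12 genes named as highest in the gate over the opposing gate of f/f, 6 are known from smooth muscle and pericytes, the contractile cells of vessel walls and myometrium: Tagln, Rgs5, Myh11, Mcam, Acta2 and Tpm2. This grouping was made after the values had been seen. The other 6 were Rasgrp2, Acvrl1, Pakap, Igha, Slc7a2 and Rem1. In f/f 43 of 7278 genes with at least 50 UMIs were 2-fold or more higher in the gate (0.591% of genes) and 14 were 2-fold lower (0.192%). In d/d, with fewer cells, 35 of 1988 genes were higher (1.76%) and 10 lower (0.503%). Of the 43 genes, 14 had a level more than 5 times that of the gate in epithelial, mesothelial, endothelial or immune cells. All genes together had a median log2 ratio of -0.02 and an SD of 0.33 in f/f.

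Tagln, which encodes the actin-binding protein transgelin, had 51 UMIs in the gate and 5 in the opposing gate of f/f, 65.2 and 6.34 CPM, a log2 ratio of 3.36 (2.05 to 5.04). In d/d it had 20 UMIs and 0. With the opposing gate set to a floor of 3 UMIs the log2 ratio was 1.22, and the lower end of the counting interval was 0.79. Rgs5, a regulator of G protein signalling known from pericytes, had 63 and 10 UMIs in f/f, a log2 ratio of 2.67 (1.69 to 3.79). In d/d it had 16 and 0 UMIs, a log2 ratio of 0.90 at the same floor, with a lower interval end of 0.43. Both genes had 10 UMIs or fewer in the opposing gate of either library.

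Myh11, the smooth muscle myosin heavy chain, had 75 and 21 UMIs in f/f, a log2 ratio of 1.85 (1.13 to 2.62), and 23 and 2 UMIs in d/d, a log2 ratio of 2.01 (-0.01 to 5.14). Mcam, an adhesion molecule of vessel walls, gave log2 ratios of 1.70 (0.90 to 2.58) and 2.57 (-0.10 to 7.96) on 55 and 17 UMIs in f/f and 17 and 1 in d/d. Acta2, smooth muscle actin, had 39 and 11 UMIs in f/f, a log2 ratio of 1.84 (0.84 to 2.95), and 13 and 3 in d/d, a log2 ratio of 0.60 (-1.26 to 3.05). All 3 were higher in the gate of both libraries, with d/d intervals that included 0.

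Tpm2, a tropomyosin, and Rem1, a small GTPase, were counted more often. Tpm2 had 279 and 132 UMIs in f/f and 106 and 19 in d/d, with log2 ratios of 1.09 (0.79 to 1.40) and 0.97 (0.25 to 1.75). Rem1 had 114 and 51 UMIs in f/f and 54 and 7 in d/d, with log2 ratios of 1.17 (0.68 to 1.68) and 1.43 (0.29 to 2.82). For these genes the intervals of both libraries lay above 0. Rasgrp2, an exchange factor for Ras-like GTPases, gave 2.06 (1.35 to 2.85) in the f/f and 1.57 (-0.50 to 4.73) in the d/d library. Acvrl1, a receptor of the TGF-beta family best known from endothelium, gave 1.74 (0.81 to 2.76) and 1.19 (-0.96 to 4.38). Thinning cells to 500 UMIs turned the f/f ratio of Acvrl1 to -0.49. With Col6a4 left out of the rule the f/f ratios of Mcam (0.23), Rem1 (0.48) and Rasgrp2 (0.88) were under 2-fold, and that of Tpm2 was 0.58 at a mitochondrial share of at most 2%.

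Igha, the constant region of the immunoglobulin A heavy chain, stood apart from this group. It had 310 and 126 UMIs in f/f, 396 and 160 CPM, a log2 ratio of 1.31 (1.01 to 1.62), and 228 and 62 UMIs in d/d, 816 and 633 CPM, a log2 ratio of 0.37 (-0.05 to 0.79). Epithelial cells had 42.2 CPM of Igha in the f/f and 155 CPM in the d/d library. Slc7a2, a transporter of basic amino acids, had log2 ratios of 1.22 (f/f) and -0.67 (d/d). Pakap had 1.55 in f/f with 13 UMIs and 0 in d/d. With Col6a4 left out of the rule the f/f ratios of Igha, Slc7a2 and Pakap were 0.77, 0.33 and 0.46.

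Read in d/d, 11 of the 12 genes named as highest in f/f had a ratio above 0 and 6 were at or past 2-fold. Of these 12 genes 5 had at least 20 UMIs there, so the count rests in part on low values. Over the 43 higher genes, 21 had at least 20 UMIs in d/d, and 18 of these were above 0 and 5 at or past 2-fold. Of all 5296 genes with at least 20 UMIs there, 2509 were above 0 and 321 at or past 2-fold higher. The d/d cells took no part in choosing the genes, although the 12 genes of the rule were the same.

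**Figure D3:**
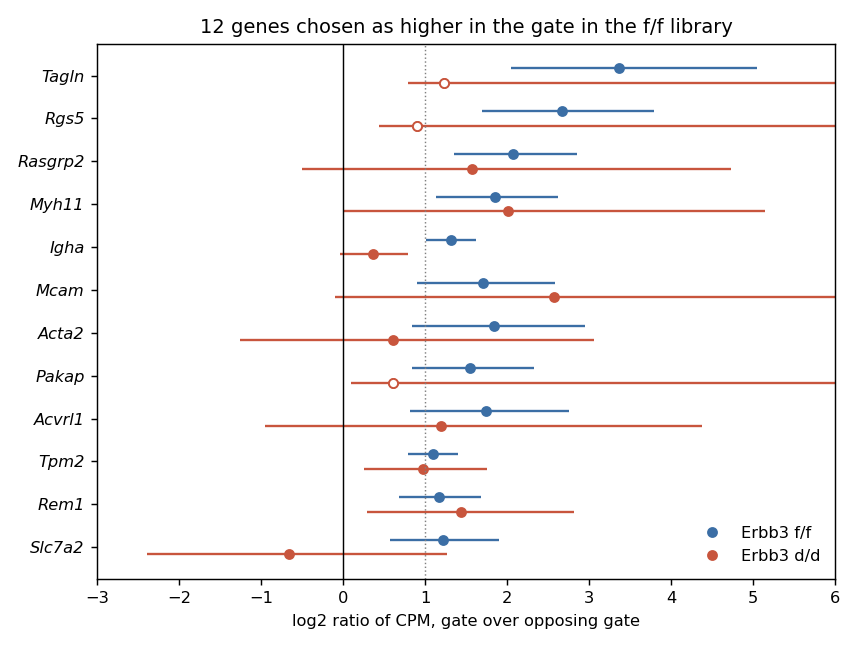
Log2 ratio of CPM in the gate over the opposing gate for the 12 genes named as higher in f/f, with f/f in blue, d/d in red and 95% counting intervals cut at the axis edge. Open symbols have 0 UMIs in the opposing gate of d/d and stand at a floor of 3 UMIs; 11 of the 12 d/d points lie above 0, and the dotted line is 2-fold.

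Most gate cells had no UMI of the contractile genes. Cells with at least 3 UMIs of 12 smooth muscle and pericyte genes, a set chosen after the values had been seen, made up 53 gate cells of f/f (8.04%, 6.08% to 10.4%) and 12 of d/d (4.58%, 2.39% to 7.86%). The opposing gate had 7 such cells of f/f (0.894%) and 1 of d/d (1.02%). In 536 gate cells of f/f (81.3%) and 198 of d/d (75.6%) none of the 12 genes had a UMI, which at this depth does not limit the share of cells that express them. The 7 pericyte markers summed to 293 CPM in f/f gate cells and 258 CPM in those of d/d and to 72.3 and 40.9 CPM in the opposing gate. The 9 smooth muscle markers summed to 908 and 780 CPM against 600 and 664 CPM. Synpo2, an actin-bundling protein, gave 257 of the 710 smooth muscle UMIs of the f/f gate and 232 of 473 in the opposing gate.

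Without those cells, 18 genes in place of 43 were 2-fold higher in the gate of f/f, and 25 in place of 14 lower. The cells left out were picked by UMIs of genes that are among the 43, which by itself lowers the first count. The f/f ratios of Tagln, Rgs5, Myh11 and Acta2 were then 1.09, 0.48, 0.45 and 0.70. All 4 genes were used to pick the cells left out, which by itself lowers these ratios. With Col6a4 left out of the rule, 18 genes were higher and 38 lower, so both counts rest on choices within the rule.

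Genes lower in the gate were sparse, and d/d was too shallow to read them again. The 12 named in f/f were Vipr2, Khdrbs3, Ccdc189, Foxk2, Arntl, Wnt16, Pole2, Cbarp, Mamdc2, Cct4, Setd4 and Trappc6a. Vipr2, a receptor of vasoactive intestinal peptide, had 18 UMIs in the gate and 54 in the opposing gate, a log2 ratio of -1.57 (-2.43 to -0.78), and 2 and 0 UMIs in d/d. Wnt16, a Wnt ligand, had 25 and 54 UMIs in f/f, a log2 ratio of -1.10 (-1.85 to -0.39), and 10 and 2 in d/d, a log2 ratio of 0.81. Arntl, the clock gene also called Bmal1, had 15 and 37 UMIs in f/f and 8 and 3 in d/d, with log2 ratios of -1.29 and -0.10. Of the 12 genes, 1 had at least 20 UMIs in d/d, Foxk2 with 17 and 4. Its log2 ratio there was 0.57 (-1.04 to 2.60), on the other side of 0 from f/f. On fewer UMIs, 7 genes lay below 0 in d/d and 1 of them was at or past 2-fold.

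Along the lead in UMIs, the 12 genes named as higher summed to 713 CPM in f/f cells that missed by a single UMI, to 842 CPM in tied cells and to 1375 CPM in cells that entered by 1. They were at 1351 CPM at a lead of 2 to 3 and at 2222 CPM at a lead of 4 or more. In d/d the same sums were 1037, 1345, 1134, 1480 and 2508 CPM, and the cells with the widest lead lay above the other groups. Igha (228 UMIs) and Tpm2 (106 UMIs) were the most counted of the 12 in the d/d gate. At leads of 1, 2 to 3, and 4 or more, median mitochondrial shares were 1.39%, 1.88% and 2.52% in f/f. In d/d they were 3.25%, 2.89% and 4.50%. Median UMIs were 779, 832 and 980 in f/f and 800, 726 and 877 in d/d. The part of either in the sums was not tested. Single genes differed in f/f at leads of 1, of 2 to 3, and of 4 or more. Rgs5 (32.5, 66.9 and 165 CPM) and Rasgrp2 (68.6, 97.0 and 170 CPM) rose. Myh11 (170, 63.6 and 43.7 CPM) and Tagln (93.8, 43.5 and 58.2 CPM) were highest at a lead of 1. The 12 genes chosen as lower summed to 709 CPM in f/f at a lead of -1 and 278 CPM at a lead of 1, and in d/d to 327 and 266 CPM. The f/f sums were used in choosing the genes and the d/d sums were not.

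Between the genotypes, gate cells of d/d had more RNA of Cxcl14, Tnfrsf19 and Aldh1a2 and less of Slc2a3, Cwc22 and Lef1 than those of f/f. Of these, Cxcl14, Tnfrsf19, Slc2a3 and Cwc22 also differed more than 2-fold in the same direction in epithelial cells. Of 5905 genes with at least 50 UMIs, 95 were 2-fold or more higher in d/d (1.61%) and 216 were 2-fold lower (3.66%). More than 5 times the gate's level was seen in another class of cells for 32 of the higher and 10 of the lower genes. The median log2 ratio over all genes was -0.08, with an SD of 0.50, and 42.8% of genes lay above 0. In the opposing gate, with fewer d/d cells, 146 of 5175 genes were higher (2.82%) and 481 lower (9.29%).

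Cxcl14, a chemokine, had 114 UMIs in the f/f and 116 in the d/d library, 146 and 415 CPM, a log2 ratio of 1.51 (1.12 to 1.90). In the opposing gate it had 192 and 89 UMIs, 244 and 909 CPM for a log2 ratio of 1.90. Cxcl14 was thus higher in the opposing gate than in the gate in both libraries, and higher in d/d in both gates. Epithelial cells had 26.7 CPM in the f/f and 104 CPM in the d/d library.

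Tnfrsf19, a receptor of the TNF receptor family, had 72 and 78 UMIs in f/f and d/d gate cells, 92.1 and 279 CPM, a log2 ratio of 1.60 (1.12 to 2.08). Epithelial cells had more of it than the gate in both libraries, 191 CPM in the f/f and 710 CPM in the d/d library. Aldh1a2, which makes retinoic acid from retinaldehyde, had 118 and 114 UMIs, 151 and 408 CPM, a log2 ratio of 1.44 (1.05 to 1.82), and 7.75 and 13.4 CPM in epithelial cells. Plat, tissue plasminogen activator, had 78 UMIs in each library, a log2 ratio of 1.48 (1.01 to 1.96), but was at 374 and 600 CPM in epithelial cells, above its 99.7 and 279 CPM in the gate. These 3 genes were also higher in d/d in the opposing gate, by 0.95, 1.27 and 1.19.

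Col6a6, another chain of collagen VI, had 40 UMIs in the f/f and 45 in the d/d library, 51.1 and 161 CPM, a log2 ratio of 1.65 (1.01 to 2.31). In the opposing gate the ratio was 0.86 on 40 and 9 UMIs. The chains Col6a1, Col6a2 and Col6a3 had ratios of 0.08 (-0.10 to 0.26), 0.10 (-0.06 to 0.26) and 0.35 (-0.07 to 0.76) in the gate. Col6a4 and Col6a6 were thus the chains of collagen VI that were past 2-fold in the gate, and Col6a5 had too few UMIs.

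Others among the 12 highest were Lbh, a cofactor of transcription (82 and 77 UMIs, 1.39), Brwd1, a bromodomain protein (161 and 135 UMIs, 1.23), and Tnnt3, a troponin T (42 and 47 UMIs, 1.65). Fam110c, Aamdc and Ggt5 had ratios of 1.87, 1.95 and 1.61 on 21 to 35 UMIs per library, and at a mitochondrial share of at most 2% those of Fam110c and Aamdc were 0.83 and 0.62. Igha had 310 and 228 UMIs and a ratio of 1.04 (0.79 to 1.29), and a ratio of 0.23 among cells with a mitochondrial share of at most 2%.

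Slc2a3, a glucose transporter, had 220 UMIs in the f/f and 15 in the d/d library, 281 and 53.7 CPM, a log2 ratio of -2.39 (-3.25 to -1.64). In the opposing gate the ratio was -1.12, and epithelial cells had 505 CPM in the f/f and 107 CPM in the d/d library. Slc2a3 was thus lower in d/d in each of these groups of cells. With a mitochondrial share of at most 2% its ratio in the gate was -1.40.

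Cwc22, a factor of the spliceosome, had 492 and 46 UMIs, 629 and 165 CPM, a log2 ratio of -1.93 (-2.40 to -1.50), and -3.03 in the opposing gate. In epithelial cells it had 629 CPM in the f/f and 85.7 CPM in the d/d library. Jam2, a junctional adhesion molecule, had 348 and 40 UMIs and a ratio of -1.64 (-2.15 to -1.16), with -1.54 in the opposing gate, and epithelial cells had 2054 and 517 CPM, above the 445 and 143 CPM of the gate. Lef1, a transcription factor of Wnt signalling, had 419 and 54 UMIs, 536 and 193 CPM, a ratio of -1.47 (-1.91 to -1.06), and -1.35 in the opposing gate, with 25.0 and 29.5 CPM in epithelial cells. At a mitochondrial share of at most 2% the ratio of Lef1 was -0.59. All 3 were well counted in f/f and lower in d/d in both gates, and Cwc22 and Jam2 were lower in d/d epithelial cells too.

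Sparser genes made up the rest of the lowest 12. Col4a6, a chain of basement membrane collagen, had 186 and 19 UMIs and a ratio of -1.81 (-2.57 to -1.12). Gpc6, a glypican, had 76 and 4 UMIs and a ratio of -2.76 (-4.68 to -1.35), or -0.91 at a mitochondrial share of at most 2%. Tenm3, Zcchc10, Lmtk3, Cox7b and Decr2 had 59 to 91 UMIs in f/f and 4 to 8 in d/d, with ratios from -2.40 to -2.02. Tnfrsf21, a death receptor, had 80 and 6 UMIs and a ratio of -2.25 (-3.74 to -1.07), which turned to 0.29 when cells were thinned to 500 UMIs.

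The same genes stood on the same side of 0 outside the gate. All 12 genes named as higher in d/d were higher in the opposing gate too, 9 of them at or past 2-fold, and all 12 named as lower were lower, 10 at or past 2-fold. Of 5175 genes with at least 50 UMIs in the opposing gate, 43.7% lay above 0, 2.82% were 2-fold higher and 9.29% 2-fold lower. The intervals of the 2 gates overlapped for 11 of the higher and 12 of the lower genes. The exception was Igha, at 1.04 (0.79 to 1.29) in the gate and 1.99 (1.52 to 2.44) in the opposing gate. Overlap over all genes was not counted. The 2 gates are cut from the same 2 libraries, so their ratios are not independent.

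**Figure D4:**
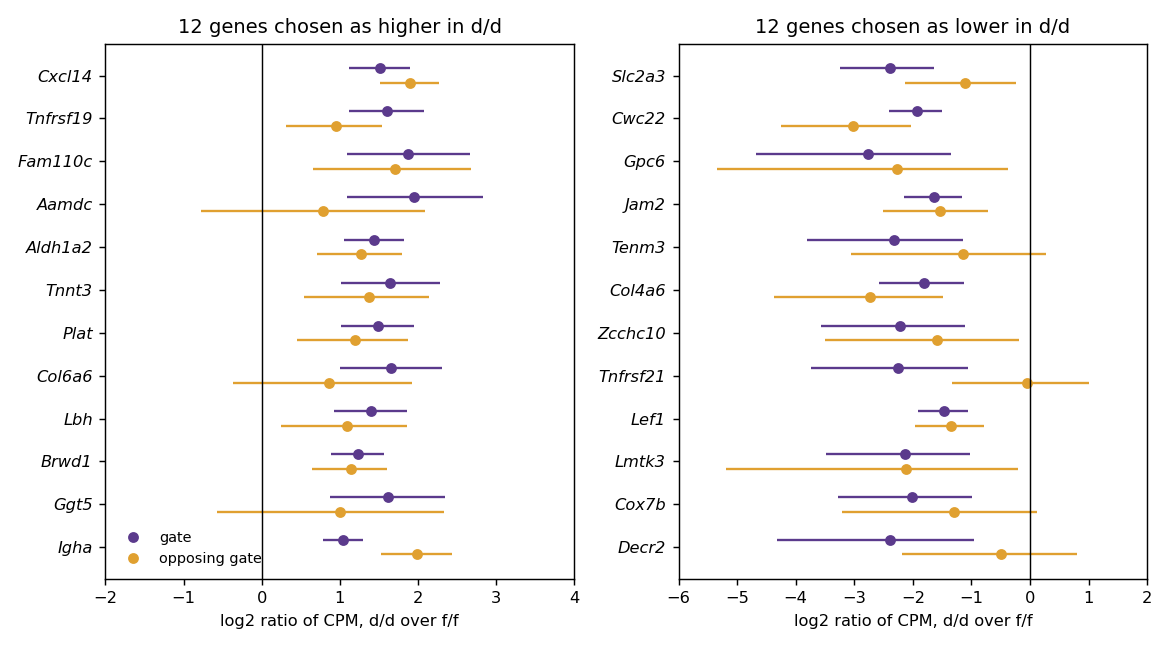
Log2 ratio of CPM in d/d over f/f for the 12 genes named as highest (left) and the 12 named as lowest (right), in the gate (purple) and the opposing gate (yellow), with 95% counting intervals. Every point of the opposing gate lies on the same side of 0 as that of the gate, and Igha is the gene whose intervals do not overlap.

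HOX genes, which set position along the reproductive tract, had a median log2 ratio of -0.64 in the gate, against -0.08 over all genes. Of 13 counted, leaving out Hoxd10, which the rule used, 1 lay above 0 (42.8% of all genes), 4 were 2-fold lower (3.66% of all genes) and 0 were 2-fold higher (1.61%). Hoxd11 had 340 and 48 UMIs, 435 and 172 CPM, a ratio of -1.34 (-1.81 to -0.90), and -1.06 in the opposing gate. Hoxd4 had 200 and 35 UMIs and a ratio of -1.03 (-1.59 to -0.51). Hoxb8 (-1.07, -1.74 to -0.45) and Hoxb3 (-1.13, -2.42 to -0.04) had ratios of 0.10 and 0.38 in the opposing gate, with few UMIs there. Hoxa10 and Hoxa11, both needed for implantation, had ratios of -0.13 (-0.41 to 0.14) and -0.25 (-0.91 to 0.38). In the opposing gate the HOX list had a median of -0.46 over 11 members, against -0.09 over all genes there. Of these members 3 were 2-fold lower (9.29% of all genes there) and 0 were 2-fold higher (2.82%).

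Genes of the progesterone and Hedgehog response gave a median of -0.34 over 19 members, with 0 past 2-fold higher, 3 past 2-fold lower and 3 above 0, against the same 1.61%, 3.66% and 42.8% of all genes. Ptch1, the Hedgehog receptor and itself a target of the pathway, had 252 and 42 UMIs, 322 and 150 CPM, a ratio of -1.10 (-1.61 to -0.62). Gli1, another target of the pathway, had 193 and 65 UMIs and a ratio of -0.09 (-0.51 to 0.33). Il13ra2, a decoy receptor of interleukin 13, had 58 and 9 UMIs and a ratio of -1.20 (-2.40 to -0.18).

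Nr2f2, the nuclear receptor COUP-TFII, had 337 and 70 UMIs and a ratio of -0.78 (-1.18 to -0.41), and Hand2, a progesterone target that restrains epithelial growth, had 971 and 250 UMIs, 1241 and 895 CPM, and a ratio of -0.47 (-0.68 to -0.27). Pgr, the progesterone receptor itself, had 176 and 59 UMIs, 225 and 211 CPM, and a ratio of -0.09 (-0.54 to 0.34). In the opposing gate the list had a median of -0.56 over 16 members, with 5 past 2-fold lower, where 9.29% of all genes were.

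**Figure D5:**
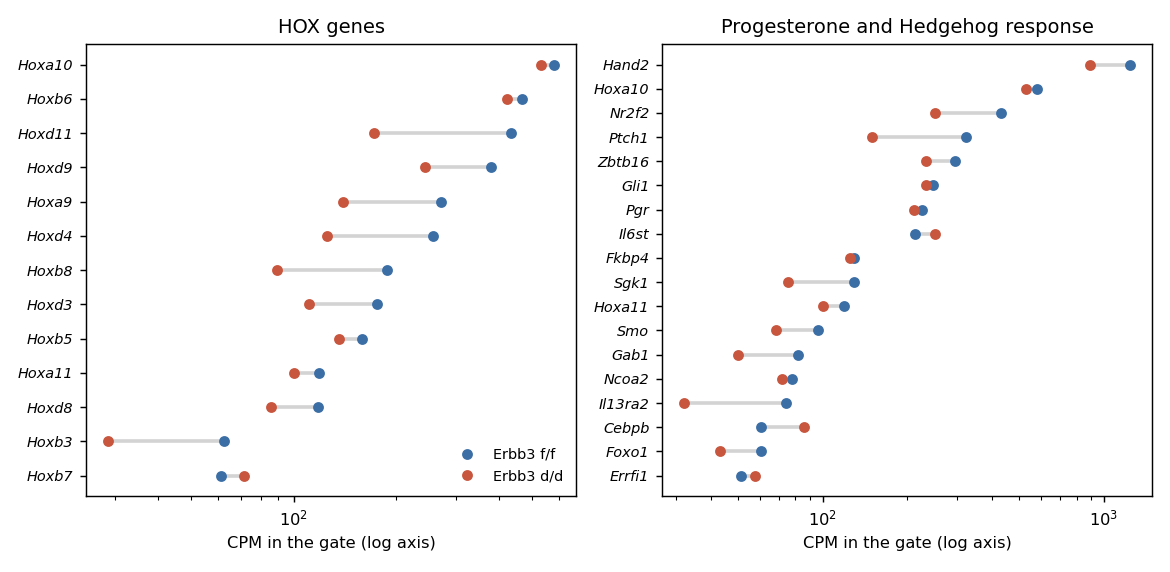
CPM in gate cells of f/f (blue) and d/d (red) on a log axis for the counted HOX genes (left) and 18 of the 19 counted genes of the progesterone and Hedgehog response (right), with a grey line joining the 2 libraries. Hoxd11 (435 and 172 CPM) and Ptch1 (322 and 150 CPM) are lower in d/d, while Pgr (225 and 211 CPM) differs little.

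Medians of the matrix lists ran from -0.37 to 0.23, against -0.08 over all genes. Their counts stand against 1.61% of all genes 2-fold higher and 3.66% 2-fold lower. Basement membrane genes had a median of -0.32 over 14 members with 0 past 2-fold higher and 3 lower, namely Col4a6, Col4a5 (93 and 13 UMIs, -1.35) and Col18a1 (395 and 66 UMIs, -1.10). At a mitochondrial share of at most 2% the median was 0.00. The main network chains Col4a1 and Col4a2 had ratios of -0.03 (-0.24 to 0.19) and 0.00 (-0.29 to 0.29). Other matrix genes had a median of -0.19 over 23 members, with 3 past 2-fold higher and 2 lower. Dcn, the proteoglycan decorin, had 69 and 54 UMIs and a ratio of 1.13 (0.59 to 1.67), Mfap4 1.21 (0.51 to 1.91) and Igfbp5 1.01 (0.54 to 1.46). Loxl2, a lysyl oxidase, had a ratio of -1.70 (-2.88 to -0.71) and Tnc, tenascin C, -1.57 (-2.94 to -0.43).

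Fn1, fibronectin, had 1016 and 241 UMIs, 1299 and 862 CPM, and a ratio of -0.59 (-0.80 to -0.39). Interstitial collagens outside the rule had a median of -0.37 over 4 members, 0 of them past 2-fold. Collagen VI chains outside the rule had a median of 0.23 over 4 members, with 1 past 2-fold higher, Col6a6. Metalloproteases and inhibitors had a median of 0.01 over 11 members, with 1 past 2-fold higher, Adamtsl1 (1.29), which was more than 5 times higher in mesothelial cells. Mmp2, a gelatinase, had 506 and 268 UMIs and a ratio of 0.57 (0.35 to 0.78). Of the integrins 9 were counted, with a median of -0.07, 0 past 2-fold higher and 1 lower, Itgb8 (-1.32).

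Signals and their receptors differed gene by gene, where again 1.61% of all genes were 2-fold higher and 3.66% 2-fold lower. Wnt ligands and modulators had a median of -0.32 over 9 members, with 0 past 2-fold higher and 2 lower, Lef1 and the secreted inhibitor Sfrp2 (129 and 20 UMIs, -1.20, -1.96 to -0.52). Axin2, a target of the pathway, had a ratio of 0.01 (-0.54 to 0.53). Secreted growth factors had a median of 0.07 over 13 members, with 2 past 2-fold higher, Fgf1 (1.89) and Sema3c (1.24), both more than 5 times higher in mesothelial cells, and 1 lower, Pdgfd (133 and 19 UMIs, -1.32, -2.10 to -0.62). Vegfa, the endothelial growth factor, had 557 and 289 UMIs and a ratio of 0.54 (0.33 to 0.75).

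ErbB receptors and ligands were sparse, with 4 members counted, 0 past 2-fold in either direction and a median of -0.07. Nrg2, a neuregulin, came nearest to 2-fold, with 60 and 42 UMIs, 76.7 and 150 CPM, and a ratio of 0.97 (0.37 to 1.56), and it had a ratio of 1.22 in the opposing gate. Egfr and Erbb2 had ratios of -0.31 (-1.03 to 0.36) and -0.73 (-1.82 to 0.23).

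Of the hormone lists, estrogen response genes had a median of 0.04 over 12 members. Past 2-fold higher was 1 (1.61% of all genes), Ramp3 (54 and 39 UMIs, 1.02, 0.38 to 1.64). Past 2-fold lower was 1 (3.66% of all genes), the cyclin Ccnd2 (101 and 11 UMIs, -1.71, -2.76 to -0.81). Esr1, the estrogen receptor, had 797 and 317 UMIs and a ratio of 0.15 (-0.04 to 0.34). Corticosteroid genes outside the rule had a median of -0.47 over 6 members and 0 past 2-fold in either direction. Decidualisation genes had a median of -0.14 over 12 members, with 1 past 2-fold higher, Dcn, and 1 lower, Gja1, the gap junction protein connexin 43 (99 and 10 UMIs, -1.82, -2.93 to -0.88).

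Chemokine, cytokine and complement genes had a median of 0.69 over 8 members. Of these, 7 were above 0 (42.8% of all genes) and 1 was past 2-fold higher (1.61% of all genes), Cxcl14. For 5 of these 8 genes another class of cells had more than 5 times the level of the gate. Proliferation genes had a median of 0.22 over 6 members, with 1 past 2-fold higher, Top2a (57 and 44 UMIs, 1.11), more than 5 times higher in epithelial cells. Immediate early and heat shock genes had a median of -0.27 over 8 members, and calcium channel genes outside the rule one of -0.03 over 4, both with 0 past 2-fold in either direction. The immune and epithelial markers given above were also higher in d/d gate cells than in f/f, and their part in these lists was not tested.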

How the data were processed

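Single-cell RNA was measured in 1 library per genotype. The deposited values were raw UMI counts per gene and barcode, which per the file headers came from Cell Ranger 9.0.0, for 19070 genes and the barcodes the authors' pipeline called as cells. The genome build used for them was not settled by the sources used here.

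Cells were gated as the opening describes, and raw counts were summed per gate and library. CPM are counts per 1000000 of that sum. Genes with 50 UMIs or more over the groups compared were counted and ranked, and ratios of a named gene in other groups are given whatever its UMIs, with exact conditional binomial intervals, and counts and shares with Poisson and Clopper-Pearson intervals; a 0 was set to a floor of 3 UMIs. A gene at or past 2-fold was counted. Named genes were the 12 highest and 12 lowest by the interval bound nearest 0, leaving out genes of the rule, mitochondrial genes and genes over 5 times higher in another class of cells, and list members past 2-fold or most counted. A list member past 2-fold is not reported here. The members and the 18 lists were chosen with earlier results of these data known. Scrublet (scanpy 1.11.5) called 0 and 1 doublets, too few to have worked, so none were removed. Python 3.11.15, numpy 2.4.6, scipy 1.17.1 and pandas 2.3.3 were used, and the code was tested on simulated data. Alternatives changed the gate, cell filters, depth, gene minimum and scaling.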

Additional observations from a re-analysis of the deposited data

How the results depend on the processing

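The share of stromal cells in the gate, 35.5% in the f/f and 54.5% in the d/d library, was 29.8% and 47.8% with at least 2 UMIs of the 6 genes, 27.3% and 30.4% without Col6a4, 32.1% and 48.8% with cells thinned to 500 UMIs, and 30.5% and 44.8% at a mitochondrial share of at most 2%. It was 37.8% and 58.4% with a stromal sum of at least 5. Genes higher in d/d, 95 as reported, numbered 27 with thinned cells, 354 and 30 with a minimum of 20 and 100 UMIs, and 52 at a mitochondrial share of at most 2%. Genes lower in d/d, 216 as reported, numbered 87 with thinned cells and 578 and 73 with those minimums. Genes higher in the gate than in the opposing gate of f/f, 43 as reported, numbered 18 without Col6a4, 13 with thinned cells, 226 and 10 with those minimums, 20 at a mitochondrial share of at most 2% and 18 without cells with smooth muscle and pericyte genes. Genes lower in the gate, 14 as reported, numbered 38 without Col6a4, 93 and 0 with those minimums, 42 at a mitochondrial share of at most 2% and 25 without those cells. The last 2 filters were chosen after seeing the data. Apart from the gene minimums and the smaller samples they leave, the cause was not tested.

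Of 240 values of the 24 genes named between genotypes under 10 alternatives, 220 lay within the reported interval, 19 outside it in the same direction, and 1 was opposite, Tnfrsf21 at 0.29 in thinned cells. Within it lay 15 of the 24 genes with thinned cells and 16 at a mitochondrial share of at most 2%. Some settings hardly changed the cells: at least 500 UMIs kept 654 of 659 gate cells in f/f and 262 of 262 in d/d. Between the gates 208 of 240 lay within, 31 outside in the same direction, and 1 was opposite, Acvrl1 at -0.49 in thinned cells. Here 14 of the 24 genes lay within without cells with smooth muscle and pericyte genes, 16 with thinned cells and 17 without Col6a4. TMM scaling left all 48 values within their intervals. With 1 library per genotype, an effect of genotype cannot be told apart from differences between libraries or animals, and d/d gate cells gave 279445 UMIs against 782141 in f/f, so genes under the minimum were not counted.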
